A study of Homo sapiens with 9 samples.

Results

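The comparison set TCam-2 cells that had been transfected with a vector carrying nonspecific guide RNAs (negative control, NC) against untreated TCam-2 cells (wild type, WT). It took 6 of the 9 libraries of the series, 3 NC and 3 WT, chosen by their labels, and all genes were tested. TCam-2 is a cell line from a human seminoma, a tumour of germ cells that resembles primordial germ cells. The study activated the homeobox gene ESX1 with CRISPR activation, in which a catalytically dead Cas9 fused to an activator is led to a promoter by guide RNAs. NC was its control for the procedure and WT the second control.

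The NC cells received the guide vector, which also encodes GFP, by Lipofectamine, and were kept under puromycin and doxycycline before collection. Their guides were chosen to have no target in the human genome. Whether they also received the doxycycline-inducible dCas9-VPR vector is not given in the sources used here. The WT cells are labelled as having no modification, and no mock transfection or drug treatment of them is stated. Vector DNA, lipid, puromycin and doxycycline therefore cannot be told apart in this comparison. GFP was seen in only part of the NC cells, and whether the other cells carried the vector is not known. In bulk RNA, a lower share of cells expressing a gene and less RNA per cell cannot be told apart. The 3 libraries of each group were described as biological replicates.

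Cells read double-stranded DNA and RNA in the cytoplasm through sensors such as cGAS and RIG-I, which switch on interferon genes and, through them, a wide set of antiviral effectors. Foreign DNA, transfection lipids and antibiotics can also touch other programmes, among them the p53 response, the ATF4 response to amino acid shortage, heat shock, iron and redox handling, sterol synthesis and the cell cycle. Seminoma cells keep the pluripotency factor POU5F1 together with germ cell factors such as SOX17, TFAP2C, PRDM1 and the receptor KIT.

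All levels below are counts scaled to library size with TMM factors (normalized CPM), given for replicates 1, 2 and 3 in that order. A difference is the log2 fold change of NC against WT ± its standard error (SE), with n = 3 in each group. It was fitted to the deposited counts of all 9 libraries with edgeR's quasi-likelihood test. The p-values were adjusted over all tested genes by the Benjamini-Hochberg method. A gene was called when its adjusted p was below 0.05 and its fold at least 2.

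Reads assigned to genes came to between 8821806 and 9220653 in the NC libraries and between 7494442 and 10644408 in the WT libraries. Mitochondrial genes took 14.45% to 15.25% of the counts in NC and 17.02% to 18.33% in WT, with no overlap. After each library was thinned to 7494442 counts, 28766 to 29615 genes had a count in NC and 26950 to 27362 in WT. WT replicate 1 stood apart from the other WT libraries. It was the WT library nearest to NC for 62.9% of the called genes, and for 44.8% of all tested genes. WT replicate 2 had 3518 CPM in 4 ribosomal RNA loci of chromosome 21, which summed to at most 38.96 CPM in any other library of the 6. The ESX1 gene itself lay at 3.63, 2.89 and 3.46 in the NC libraries and 3.603, 4.08 and 3.13 in the WT libraries, a difference of -0.10 ± 0.28, adjusted p = 0.837. Seminoma markers were expressed in all 6 libraries, except that the placental alkaline phosphatase ALPP stayed too low to be tested, whereas of the leukocyte markers PTPRC, CD3E and LYZ had at most 1 count in any of them. The remaining leukocyte marker, CD14, had 12, 10 and 3 counts in NC and 2, 0 and 9 in WT, with overlap (1.04 ± 0.81, adjusted p = 0.406).

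Of 18452 genes tested, 576 were called higher in NC (3.12%) and 397 lower (2.15%), 973 in all (5.27%). At any fold, 1259 genes were higher (6.82%) and 1899 lower (10.3%) at an adjusted p below 0.05. The 3 NC values lay outside the 3 WT values for 37.6% of all tested genes. They did so for 98.6% of the genes called higher and 97.7% of those called lower. A separation of the groups in a called gene therefore adds little to its call. The median log2 difference over all tested genes was 0.01. Under upper-quartile scaling that median became 0.10 and the calls split into 710 higher and 311 lower. The direction of calls followed expression level. Of 5 equal classes of genes by mean level, the lowest held 177 called higher and 33 lower, and the highest held 18 called higher and 93 lower. Among called genes, the largest rises in NC were those of interferon genes, whereas the largest falls among genes of at least 5 CPM included the germ cell receptor gene GFRA1.

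**Figure D1:**
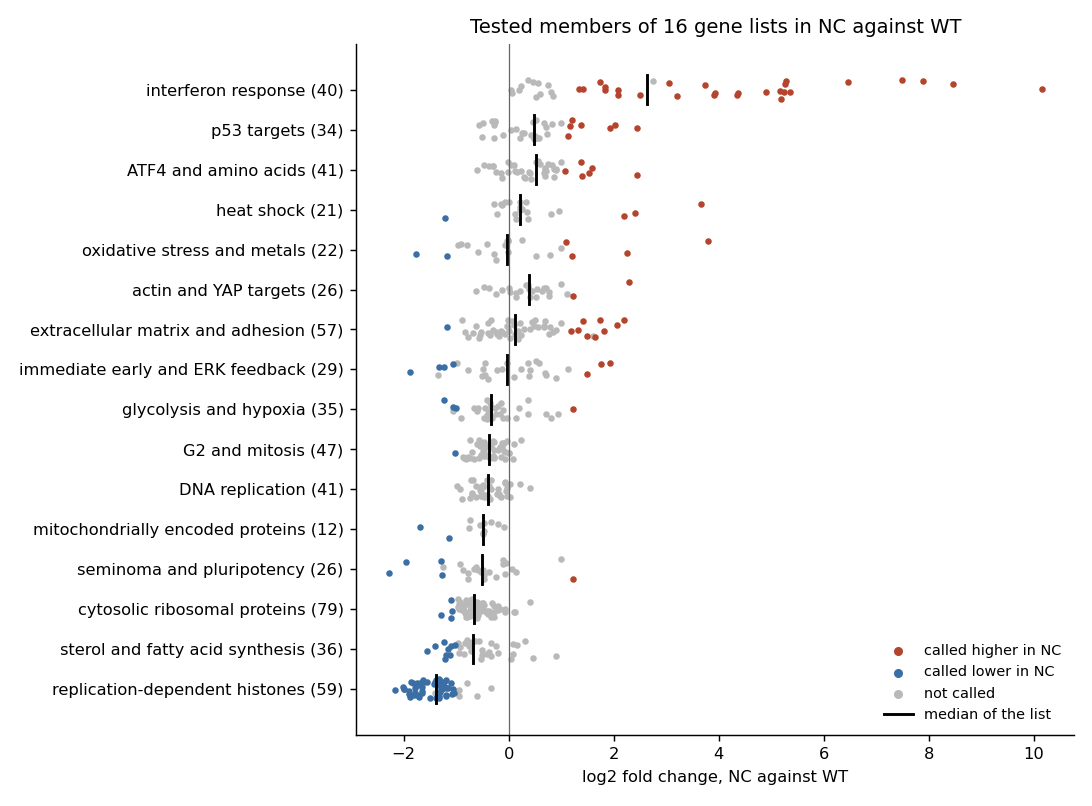
Log2 fold change of NC against WT for the tested members of 16 gene lists. Each point is a gene, red where called higher in NC, blue where called lower and grey where not called, the black bar is the list's median and the number tested stands in parentheses. Interferon genes reach furthest to the right (median 2.62) and histone genes lie furthest to the left (median -1.39).

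The interferon list held the largest rises, and a few of its genes are given here as a base for their promoter sequences. Of 52 listed genes 40 were tested, 27 were called higher and 0 lower (67.5%, against 5.27% of all tested genes). At an unadjusted p below 0.05, 33 were higher and 0 lower, and DESeq2 called 19 higher and 0 lower. Genes to which DESeq2 gave no adjusted p count as not called. The median log2 difference of the tested members was 2.62, against 0.01 over all tested genes, and 3 of the members had no count in WT. The median was 1.39 when only members with at least 10 counts in each of the 6 libraries were kept, and 1.5 by limma on the authors' log2 values. OAS1, which makes the 2-5A messenger that activates RNase L, was at 17.2, 15.4 and 15.5 in NC and had no count in any WT library, at least 44.6-fold higher against a floor of 3 counts per library. OAS3, an enzyme of the same family, was at 63.2, 58.8 and 57.4 in the NC libraries and 2.07, 1.75 and 1.15 in the WT libraries (5.17 ± 0.67, adjusted p = 9.28e-05). IFIH1, the sensor MDA5, was at 21.98, 24.8 and 22.5 in the NC libraries and 0.546, 0.583 and 0.522 in the WT libraries (5.36 ± 0.75, adjusted p = 0.000158). MX1, a GTPase that traps viral nucleocapsids, was at 264, 259.5 and 254 in the NC libraries and 4.37, 7.73 and 13.8 in the WT libraries (4.89 ± 0.90, adjusted p = 0.00139). In each of these genes the lowest NC library lay far above the highest WT library. IFI6, an antiviral membrane protein, was at 56.4, 44.5 and 37.5 in the NC libraries and 0.218, 0 and 0.104 in the WT libraries, where 3 WT counts in all gave a ratio of 393 with a counting interval of 134.2 to 1908.

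The promoters of some of these genes are shown because most promoters of the list share a short run of letters that few other promoters hold. The interferon-stimulated response element (ISRE) was searched as GAAA, any 2 bases and GAAA, on both strands, in windows of 300 bases, 250 before to 50 after each RefSeq start (GRCh38.p14). Of 11822 tested genes with such a window, 3.73% held a match. Among the interferon genes 20 of 31 held one (64.5%), and among all genes called higher in NC 32 of 319 (10%). These 32 include those of the called interferon genes, where 16 of 21 held a match. Among genes called lower in NC 13 of 246 held one (5.28%). Stretches of 60 bases before the start follow, 5′ to 3′ on the gene's strand, with the matched letters in capitals. In ISG15 and BST2 a pair of matches overlap.
IFI6 (chr1:27672251-27672310, minus strand): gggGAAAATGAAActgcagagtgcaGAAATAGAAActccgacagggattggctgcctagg
ISG15 (chr1:1013365-1013424, plus strand): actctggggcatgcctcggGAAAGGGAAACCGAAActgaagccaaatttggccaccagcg
IFIT1 (chr10:89392495-89392554, plus strand): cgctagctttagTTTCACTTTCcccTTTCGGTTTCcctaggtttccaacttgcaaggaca
BST2 (chr19:17405720-17405779, minus strand): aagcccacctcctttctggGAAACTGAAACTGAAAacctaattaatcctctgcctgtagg
ISG15, the ubiquitin-like modifier, was at 24.4, 21.01 and 18.8 in the NC libraries and 0.546, 0.291 and 0.731 in the WT libraries (5.26 ± 0.93, adjusted p = 0.00101). IFIT1, which binds foreign RNA ends, was at 47.2, 45.8 and 44.2 in the NC libraries and 0.983, 1.31 and 1.46 in the WT libraries (5.18 ± 0.80, adjusted p = 0.000356). BST2, which tethers budding virions, was at 4.66, 3.22 and 4.89 in the NC libraries and 0.328, 0 and 0.209 in the WT libraries (4.37 ± 0.74, adjusted p = 0.000748). WT was near 0 for these genes in all 3 libraries, and a match of letters describes the sequence only.

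Genes of antigen presentation moved with the interferon list in part. Of 19 tested members of the antigen presentation and complement list 4 were called higher and 0 lower (21.1%, against 5.27% of all tested genes). The median was 0.42. It was 0.14 when only members with at least 10 counts in each of the 6 libraries were kept. Of 11 tested genes of antigen presentation 4 were called, with a median of 0.78, and of 8 complement genes 0 were called, with 2 lower at any fold and a median of -0.02. B2M, the light chain of HLA class I, was at 13.99, 13.9 and 12.9 in the NC libraries and 3.93, 4.52 and 2.402 in the WT libraries (1.93 ± 0.27, adjusted p = 0.000164). TAP1, a subunit of the transporter that loads peptides onto HLA class I, was at 6.84, 6.65 and 5.496 in the NC libraries and 0.873, 0.291 and 0 in the WT libraries (3.97 ± 0.68, adjusted p = 0.000737). TAPBP, which bridges the transporter to HLA class I, was at 8.91, 10.2 and 7.43 in the NC libraries and 3.06, 2.48 and 2.72 in the WT libraries (1.67 ± 0.26, adjusted p = 0.000333). For these 3 genes every NC library was above every WT library. Without WT replicate 1 the TAP1 difference was 5.53. The call of the other transporter subunit, TAP2 (1.86, with 32.3% of its exons shared with another gene), was lost when any library but WT replicate 1 was left out, with adjusted p between 0.0514 and 0.0944. An ISRE match was in 8 of 14 promoters of the list and in all 4 of those of called genes.

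A uniform fall was that of the replication-dependent histones, the core and linker histones that package newly copied DNA in S phase. Their mRNAs end in a stem-loop and carry no poly(A) tail, and the ribosome-depleted total RNA used here retains them. Of 73 listed genes 59 were tested, 52 were called lower in NC and 0 higher, against 2.15% of all tested genes called lower. All 59 had a log2 difference below 0, from -2.17 to -0.33, with a median of -1.39. The groups did not overlap in 58 of them, and in 37.6% of all tested genes. Over the alternatives tried the number called lower ran from 44 to 56.

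HIST1H4F (ENSG00000274618.1, chr6:26240426-26240737) had the largest difference, at 48.2, 42.3 and 49.5 in the NC libraries and 159, 220.0 and 249.97 in the WT libraries (-2.17 ± 0.18, adjusted p = 1.62e-06). Another histone H4 gene, HIST1H4C, was at 49.9, 47.3 and 48.4 in the NC libraries and 147, 183 and 211 in the WT libraries (-1.89 ± 0.14, adjusted p = 1.58e-06). HIST1H3A, a gene of histone H3, was at 10.9, 11.9 and 11.9 in the NC libraries and 38.5, 49.4 and 49.5 in the WT libraries (-1.98 ± 0.17, adjusted p = 1.81e-06). In all 3 genes the NC values lay close together at about one level, and every WT library was above them. HIST1H2BC, which encodes histone H2B, was at 73.7, 76.9 and 83.8 in the NC libraries and 198, 259.9 and 261 in the WT libraries (-1.62 ± 0.13, adjusted p = 1.62e-06). Its lowest WT library, replicate 1, was still above all 3 NC libraries.

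All 5 histone families took part. By family, 3 of 4 tested linker H1 genes were called lower (median -1.15), 10 of 13 H2A genes (median -1.41), 16 of 18 H2B genes (median -1.39), 11 of 11 H3 genes (median -1.32) and 12 of 13 H4 genes (median -1.65). Summed over the tested H4 genes, the level was 354.9, 331.7 and 341.6 in NC and 804.3, 1066.8 and 1200.0 in WT. Summed over the H2B genes it was 952.4, 963.8 and 968.8 in NC and 2025.4, 2438.0 and 2811.4 in WT. WT replicate 1 was the lowest WT library in the sum of each family, and every NC sum was below every WT sum. Most of these genes lie in the HIST1 cluster on chromosome 6, where 39 of 44 tested were called lower. Other genes of that chromosome did not share the change to that degree, with 18 of 824 called lower. The HIST2 and HIST3 genes on chromosome 1 gave 11 of 12 and 2 of 3 called lower. A pair of replication-independent variants, which are made throughout the cycle and are polyadenylated, were looked at as well, chosen after their values were seen. H2AFZ was at 149, 160.4 and 151 in the NC libraries and 242, 306 and 299 in the WT libraries (-0.88 ± 0.15, adjusted p = 0.000629) and H3F3B at 472, 465 and 453 in the NC libraries and 569, 691 and 665 in the WT libraries (-0.47 ± 0.10, adjusted p = 0.00472), both short of 2-fold and with no overlap of the groups.

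The promoters of H2A and H2B genes hold the octamer ATTTGCAT, a binding sequence of POU factors, and it is shown because the match split the histone families. It was searched on both strands after the values had been seen. It occurred in 1.97% of the 11822 promoters and in 18 of 45 histone promoters, that is in 8 of 10 H2A, 10 of 14 H2B, 0 of 4 H1, 0 of 8 H3 and 0 of 9 H4 promoters. H2A and H2B genes are often paired head to head, so that both may share 1 match. The families without a match were lower in NC as well.
HIST1H2BJ (chr6:27132809-27132868, minus strand): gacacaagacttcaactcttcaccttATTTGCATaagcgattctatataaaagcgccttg
HIST1H2BM (chr6:27814948-27815007, plus strand): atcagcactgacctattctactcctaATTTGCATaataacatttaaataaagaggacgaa
HIST2H2BE (chr1:149886695-149886754, minus strand): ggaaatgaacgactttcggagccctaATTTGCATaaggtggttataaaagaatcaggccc
In these 3 genes, all H2B, the octamer lies less than 50 bases before the start. HIST1H2BM was at 28.1, 30.5 and 33.3 in the NC libraries and 83.9, 101 and 124 in the WT libraries (-1.75 ± 0.15, adjusted p = 2.83e-06). HIST2H2BE was at 159, 151 and 145 in the NC libraries and 268, 328 and 384 in the WT libraries (-1.11 ± 0.16, adjusted p = 0.000171). HIST1H2BJ was at 42.3, 53.7 and 47.4 in the NC libraries and 111, 131 and 133 in the WT libraries (-1.39 ± 0.14, adjusted p = 1.03e-05). The highest NC library stayed below the lowest WT library in each.

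Histone genes are short, and shorter genes were lower in NC in general. Among protein-coding genes of at least 10 CPM that encode neither histones nor ribosomal proteins, the median log2 difference was -0.50 for 46 genes with up to 1000 exonic bases, -0.33 for 412 of 1000 to 2000, -0.18 for 2096 of 2000 to 4000, -0.06 for 4168 of 4000 to 8000 and 0.02 for 2392 above 8000. The histone genes lay below the other genes of their length, at -1.41 in the shortest class (30 genes) and -1.31 at 2000 to 4000 bases (9 genes). With an offset for each library's trend with exon length, the histone median was -1.42, and with length and GC content it was -1.53. These offsets were added after the data had been seen.

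Other genes of S phase had smaller differences. Of 41 tested DNA replication genes 0 were called in either direction by edgeR and by DESeq2. At an unadjusted p below 0.05, 27 were lower and 1 was higher, and 21 were lower at any fold at an adjusted p below 0.05 (background 10.3%). The median was -0.39, with 37 of 41 below 0. MCM4, a subunit of the replicative helicase, was at 512, 459.8 and 475 in the NC libraries and 705, 737 and 777 in the WT libraries (-0.62 ± 0.10, adjusted p = 0.000345). RRM2, the small subunit of ribonucleotide reductase, was at 168, 199.8 and 197 in the NC libraries and 286, 324 and 306 in the WT libraries (-0.70 ± 0.13, adjusted p = 0.00127). PCNA, the sliding clamp of the replication fork, was at 131, 131 and 137 in the NC libraries and 200.5, 231 and 227 in the WT libraries (-0.72 ± 0.11, adjusted p = 0.000306). Each had its 3 NC libraries below its 3 WT libraries by less than 2-fold. The list had 3 called falls without WT replicate 1 and 1 without any one NC library.

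Genes of G2 and mitosis gave differences of a like size. Of 47 tested, 1 was called lower and 0 higher, or 2.13% against 2.15% of all tested genes called lower. At any fold 21 were lower (background 10.3%), and the median was -0.36. CKS2, which binds the mitotic cyclin-dependent kinases, was at 16.1, 21.01 and 24.5 in the NC libraries and 38.98, 41.7 and 43.8 in the WT libraries (-1.01 ± 0.16, adjusted p = 0.000491). It was the called gene, and its difference was -0.85 without NC replicate 1 and -0.98 without WT replicate 3, under 2-fold in both. The list had 2 falls without WT replicate 1. CDK1, the mitotic kinase, was at 77.8, 94.4 and 89.8 in the NC libraries and 134, 157 and 147 in the WT libraries (-0.74 ± 0.14, adjusted p = 0.00138). CCNB2, a cyclin of mitosis, was at 53.3, 58.95 and 65.4 in the NC libraries and 81.6, 88.6 and 92.03 in the WT libraries (-0.56 ± 0.12, adjusted p = 0.00517). The groups stayed apart in these 3 genes. MKI67, a coat protein of mitotic chromosomes and the usual marker of proliferation, was at 735, 715 and 725 in the NC libraries and 736, 724 and 864 in the WT libraries (-0.10 ± 0.10, adjusted p = 0.534), and the mitotic kinase gene PLK1 was at 101, 90.7 and 78.6 in the NC libraries and 73.4, 79.4 and 78.1 in the WT libraries (0.23 ± 0.12, adjusted p = 0.198). In both the groups overlapped.

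Late cell cycle promoters carry the cell cycle genes homology region (CHR), searched as TTTGAA on both strands. It was found in 29 of 40 promoters of the G2 and mitosis list (72.5%) and in 14.4% of all promoters. The CCAAT box bound by NF-Y was found in 33 of 40 (82.5%) and in 42.9% of all promoters. Stretches of the called gene and of 2 others are printed with the CHR in capitals.
CKS2 (chr9:89311135-89311194, plus strand): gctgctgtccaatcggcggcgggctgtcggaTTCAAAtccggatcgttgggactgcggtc
CDK1 (chr10:60778418-60778477, plus strand): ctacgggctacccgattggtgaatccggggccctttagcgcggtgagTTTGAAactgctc
CCNB2 (chr15:59105086-59105145, plus strand): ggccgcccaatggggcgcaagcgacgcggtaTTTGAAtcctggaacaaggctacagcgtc
In CKS2 the match reads on the opposite strand, as TTCAAA.

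The translation machinery was lower in NC by less than 2-fold in most members. Of 79 tested cytosolic ribosomal protein genes 4 were called lower and 0 higher, or 5.06% against 2.15% of all tested genes called lower. At any fold 62 were lower (background 10.3%), 76 had a difference below 0 and the median was -0.65. Their summed level was 23310, 21690 and 21380 in NC and 30620, 33910 and 36170 in WT. RPS29, a protein of the small subunit, was at 127, 114 and 107 in the NC libraries and 258, 296 and 299 in the WT libraries (-1.29 ± 0.11, adjusted p = 2.83e-06). RPL39, of the large subunit, was at 93.3, 106 and 96.8 in the NC libraries and 201, 218 and 218 in the WT libraries (-1.10 ± 0.11, adjusted p = 9.58e-06). RPL35A, also of the large subunit, was at 164, 177 and 168 in the NC libraries and 321, 372 and 377 in the WT libraries (-1.07 ± 0.12, adjusted p = 1.72e-05). All NC libraries were below all WT libraries in these genes. The call of RPL26 (-1.10) was lost without WT replicate 2 (-0.99) and without WT replicate 3 (-0.97). The list had 8 calls without WT replicate 1. Ribosomal protein genes have many processed pseudogenes, so that reads may be split or dropped. With the offset for exon length the median was -0.62. Of 24 nucleolus and MYC target genes, which include the makers of ribosomes, 1 was called higher and 0 lower (4.17%, against 5.27% of all tested genes). At any fold 5 were lower, with a median of 0.01. The called gene, MXD1, encodes a partner of MAX that opposes MYC and was at 20.6, 22.1 and 20.3 in the NC libraries and 14.5, 9.47 and 5.43 in the WT libraries (1.10 ± 0.26, adjusted p = 0.00852), and without WT replicate 3 its difference was 0.79. Without NC replicate 3 or WT replicate 3, 1 of the list was called lower.

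Some genes of mitochondria were lower in NC. Of 12 tested protein genes of the mitochondrial genome 2 were called lower and 0 higher (16.7%, against 5.27% of all tested genes). At any fold 5 were lower (background 10.3%), with a median of -0.49. The summed level of the 12 was 3710, 3351 and 3527 in NC against 5914, 5049 and 5059 in WT. MT-CO3, a core subunit of cytochrome c oxidase, was at 405, 417 and 463 in the NC libraries and 912, 1025 and 903 in the WT libraries (-1.14 ± 0.10, adjusted p = 4.25e-06). MT-ND3, a subunit of complex I, was at 2.695, 4.39 and 4.68 in the NC libraries and 8.41, 17.3 and 12.4 in the WT libraries (-1.68 ± 0.38, adjusted p = 0.00597). Each NC library was below each WT library in both genes. Among 86 nuclear genes of the mitochondrial ribosome and of mitochondrial proteostasis, 2 were called lower and 0 higher. At any fold 2 were higher (background 6.82%) and 29 lower (background 10.3%), with a median of -0.29. The share called lower, 2.33%, was near the background of 2.15%, and the 10 proteostasis genes had a median of 0.00. One of the 2 was HSPE1, the co-chaperonin of HSP60, at 26.2, 31.4 and 28.2 in the NC libraries and 65.6, 73.9 and 59.2 in the WT libraries (-1.21 ± 0.13, adjusted p = 1.93e-05). The call of the other, MRPS36 (-1.02), which the list places with the mitoribosome, was lost without NC replicate 1 (-0.92) or WT replicate 3 (-0.95). The list had 4 falls without WT replicate 1.

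Many enzymes of sterol and fatty acid synthesis were lower in NC, most of them by less than 2-fold. SREBP factors switch these genes on when membrane sterol is low, and INSIG1 holds them back. Of 36 tested genes 9 were called lower and 0 higher (25%, against 5.27% of all tested genes). At any fold 21 were lower (background 10.3%) and 1 was higher, with a median of -0.68. Of the 19 enzymes of sterol synthesis 6 were called lower and 11 were lower at any fold (median -0.79), and of 8 fatty acid genes 2 were called lower and 7 were lower at any fold (median -0.74). INSIG1 was at 7.88, 10.6 and 11.1 in the NC libraries and 14.1, 34.1 and 38.4 in the WT libraries (-1.55 ± 0.28, adjusted p = 0.00115). FADS2, a desaturase of fatty acids, was at 47.2, 41.3 and 44.2 in the NC libraries and 66.7, 126 and 158 in the WT libraries (-1.40 ± 0.21, adjusted p = 0.00029). FDFT1, which makes squalene, was at 98.4, 95.5 and 101 in the NC libraries and 152, 235 and 304 in the WT libraries (-1.23 ± 0.18, adjusted p = 0.000219). In all 3 genes WT replicate 1 lay between the NC libraries and the other WT libraries. Without WT replicate 3 only 4 of the list were called and the median was -0.44, and FDFT1 (-0.98) and MSMO1 (-0.99 against -1.22) were then short of 2-fold. Of the list, 1 gene was called higher without WT replicate 1. The 1 member higher at any fold was ABCA1, which exports cholesterol, at 109, 110.4 and 105 in the NC libraries and 71.3, 53.2 and 49.2 in the WT libraries (0.90 ± 0.14, adjusted p = 0.000283). The sterol response element, searched as TCACNCCAC, was in 1 of 29 promoters of the list, against 1.44% of all promoters.

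Germ cell and pluripotency genes were lower in NC in part. Of 26 tested genes 4 were called lower and 1 higher (19.2%, against 5.27% of all tested genes). At any fold 12 were lower (background 10.3%), and the median was -0.50. PRDM14, a repressor that primordial germ cells need, was at 14.8, 12.4 and 12.1 in the NC libraries and 42.6, 64.1 and 84.4 in the WT libraries (-2.28 ± 0.23, adjusted p = 1.12e-05). KIT (ENSG00000157404.15, chr4:54657918-54740715), the stem cell factor receptor and a seminoma marker, was at 21.5, 18.5 and 20.4 in the NC libraries and 51.1, 77.1 and 106 in the WT libraries (-1.95 ± 0.20, adjusted p = 1.15e-05). LIN28A, an RNA-binding protein that blocks let-7 maturation, was at 140.1, 133 and 133 in the NC libraries and 279, 328 and 381 in the WT libraries (-1.28 ± 0.17, adjusted p = 8.58e-05). The 3 NC values were close together and the WT libraries were higher and more spread, with replicate 1 the lowest. TDGF1, the NODAL co-receptor, was at 18.6, 22.1 and 21.2 in the NC libraries and 43.9, 49.7 and 55.2 in the WT libraries (-1.27 ± 0.19, adjusted p = 0.000298).

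The other tested seminoma markers fell short of 2-fold. NANOG, a pluripotency factor, was at 414, 409 and 430.2 in the NC libraries and 601, 738 and 798 in the WT libraries (-0.77 ± 0.11, adjusted p = 0.000266). PDPN, the surface protein podoplanin, was at 234, 226 and 222 in the NC libraries and 289.9, 375 and 382 in the WT libraries (-0.62 ± 0.12, adjusted p = 0.00234). POU5F1 was at 1020.4, 850.0 and 851 in the NC libraries and 1107, 1292 and 1404 in the WT libraries (-0.48 ± 0.14, adjusted p = 0.0214). TFAP2C was at 717, 738 and 708 in the NC libraries and 977, 959 and 1058 in the WT libraries (-0.47 ± 0.10, adjusted p = 0.00289), and PRDM1 at 68.4, 70.4 and 63.3 in the NC libraries and 92.8, 91.7 and 106 in the WT libraries (-0.52 ± 0.13, adjusted p = 0.011). NC was below WT without overlap in these 5 genes. SOX17, the factor that specifies human germ cells, was at 254, 254 and 246 in the NC libraries and 233, 257 and 193 in the WT libraries (0.14 ± 0.14, adjusted p = 0.518), with overlap. The called rise was SOX2, a factor of embryonal carcinoma that seminomas lack, at 6.74, 11.8 and 10.99 in the NC libraries and 5.46, 5.39 and 1.88 in the WT libraries (1.23 ± 0.35, adjusted p = 0.0222). Its call was lost without NC replicate 2 (adjusted p = 0.0884), NC replicate 3 (0.0781) or WT replicate 3 (0.0911). Without WT replicate 1, 2 of the list were called higher. SOX2 was 1 of 3 tested embryonal carcinoma markers, whose differences ran from -1.25 to 1.23 with a median of -0.34. The summed level of the 3 was 63.4, 72.9 and 73.1 in NC and 73.8, 84.8 and 84.6 in WT.

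Outside the lists, large falls were seen in GFRA1 (ENSG00000151892.14, chr10:116056925-116273467), the GDNF receptor found on spermatogonial stem cells, and in HPGD and CXCL12. GFRA1 was at 13.99, 11.5 and 9.77 in the NC libraries and 61.03, 85.3 and 126 in the WT libraries (-2.95 ± 0.23, adjusted p = 1.58e-06). HPGD, which breaks down prostaglandins, was at 10.7, 12.3 and 17.5 in the NC libraries and 45.96, 73.8 and 88.1 in the WT libraries (-2.36 ± 0.22, adjusted p = 6.34e-06). CXCL12, the chemokine that guides migrating germ cells, was at 1.87, 1.39 and 1.32 in the NC libraries and 7.32, 8.6 and 10.6 in the WT libraries (-2.52 ± 0.31, adjusted p = 4.65e-05). The rule that named these 3 genes required that NC and WT not overlap. In each the lowest WT library was replicate 1. UMODL1 (-2.95) and CAMKV (-2.59), both below 25 CPM in every library, rested more on WT replicate 3, without which the differences were -2.34 and -1.90.

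Somatic lineage factors were called in both directions. Of 32 listed genes 17 were tested, 3 were called higher and 1 lower (23.5%, against 5.27% of all tested genes). The median was 0.52, and -0.04 when only genes with at least 10 counts in each of the 6 libraries were kept. GATA3, a factor of trophoblast and other lineages, was at 4.25, 3.97 and 4.68 in the NC libraries and 1.53, 0.875 and 0.627 in the WT libraries (2.07 ± 0.38, adjusted p = 0.00128). TBX3, a factor of early mesoderm and endoderm, was at 55.97, 52.6 and 61.4 in the NC libraries and 33.5, 21.4 and 20.8 in the WT libraries (1.16 ± 0.16, adjusted p = 0.000162). OTX2, which marks neuroectoderm and opposes germ cell fate in the mouse embryo, was at 7.05, 8.897 and 5.598 in the NC libraries and 15.4, 29.6 and 26.4 in the WT libraries (-1.72 ± 0.27, adjusted p = 0.000345). The groups did not overlap in any of these 3. The call of GATA2 (1.74) was lost when any library but WT replicate 1 was left out, with adjusted p between 0.0578 and 0.116, and without WT replicate 1 its difference was 3.24. Leaving out WT replicate 1, 6 of the list were called higher and 2 lower, and without NC replicate 3, 2 were called lower.

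Among called rises of at least 5 CPM with groups apart, those with the smallest p lay outside the interferon list. That list does not cover every interferon-responsive gene, and whether the genes below respond to interferon was not tested. The spread behind p was estimated with the ESX1 libraries included, and interferon genes varied among these. IFIT1, for example, was at 2.74, 44.1 and 3.325 in ESX1 replicates 1, 2 and 3. How far this shaped the ranking was not tested. FAM129A (ENSG00000135842.16, chr1:184790724-184974550), a stress-induced protein also called Niban, was at 161, 139 and 159 in the NC libraries and 22.5, 23.8 and 29.5 in the WT libraries (2.60 ± 0.13, adjusted p = 3.78e-09). CD34 (chr1:207880972-207911402), a surface sialomucin known from blood stem cells and vessels, was at 21.98, 18.8 and 22.3 in the NC libraries and 3.17, 2.62 and 1.36 in the WT libraries (3.15 ± 0.25, adjusted p = 1.62e-06). HELZ2, a helicase-like coactivator, was at 189, 139.8 and 147 in the NC libraries and 34.3, 24.1 and 24.8 in the WT libraries (2.51 ± 0.21, adjusted p = 1.81e-06). PLEKHG1, a guanine nucleotide exchange factor, was at 65.2, 54.5 and 58.4 in the NC libraries and 19.98, 19.7 and 11.2 in the WT libraries (1.82 ± 0.17, adjusted p = 5.6e-06). In all 4 the lowest NC library was above the highest WT library by over 2-fold. Of the endothelial markers, VWF was at 29.2, 20.2 and 24.4 in the NC libraries and 16.05, 11.4 and 10.9 in the WT libraries (0.94 ± 0.20, adjusted p = 0.00331), while PECAM1 and CDH5 had at most 14 counts in any of the 6 libraries.

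Targets of p53 rose in part. Of 34 tested genes 7 were called higher and 0 lower (20.6%, against 5.27% of all tested genes). At any fold 15 were higher and 2 lower, with a median of 0.49. GADD45A, a sensor of growth arrest and DNA damage, was at 19.9, 21.4 and 19.6 in the NC libraries and 6.33, 3.498 and 4.91 in the WT libraries (2.03 ± 0.26, adjusted p = 8.9e-05). CDKN1A, the cyclin-dependent kinase inhibitor p21, was at 29.96, 24.5 and 26.9 in the NC libraries and 11.4, 7.73 and 11.8 in the WT libraries (1.38 ± 0.20, adjusted p = 0.00024). GDF15, a secreted stress cytokine that is also a target of ATF4, was at 7.36, 6.65 and 5.19 in the NC libraries and 1.53, 0.729 and 1.15 in the WT libraries (2.45 ± 0.38, adjusted p = 0.000337). NC was higher in every library for these 3 genes. MDM2, the ligase that degrades p53, was at 547, 639 and 606 in the NC libraries and 413, 409.6 and 372 in the WT libraries (0.58 ± 0.11, adjusted p = 0.00126), apart but short of 2-fold. PMAIP1, the death gene NOXA, was at 23.8, 24.3 and 25.95 in the NC libraries and 24.2, 28.4 and 36.8 in the WT libraries (-0.27 ± 0.19, adjusted p = 0.351), with overlap.

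Apoptosis genes were mostly not called. Of 24 tested genes 4 were called higher and 0 lower (16.7%, against 5.27% of all tested genes). At any fold 5 were higher and 4 lower, with a median of 0.11. TNFRSF10B, the TRAIL receptor DR5, was at 161, 137 and 142 in the NC libraries and 69, 61.9 and 64.7 in the WT libraries (1.17 ± 0.12, adjusted p = 1.15e-05). FAS, another death receptor, was at 2.902, 7.18 and 4.78 in the NC libraries and 0.655, 1.46 and 1.78 in the WT libraries (1.93 ± 0.41, adjusted p = 0.00378). Both genes are also on the p53 list, and in both the lowest NC library exceeded the highest WT library. TNFRSF10A, the TRAIL receptor DR4, was at 25.4, 23.7 and 25.3 in the NC libraries and 14.2, 10.6 and 7.63 in the WT libraries (1.20 ± 0.19, adjusted p = 0.000501). Its NC values all exceeded its WT values, and the difference was 0.99 without WT replicate 3. The call of HRK, a BH3-only protein (1.17), was lost without NC replicate 3 (adjusted p = 0.0737) or WT replicate 2 (adjusted p = 0.0606).

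The ATF4 programme, which supplies amino acids under stress, was higher in part. Of 41 tested genes 6 were called higher and 0 lower (14.6%, against 5.27% of all tested genes). At any fold 19 were higher (background 6.82%), with a median of 0.51. DDIT3, the factor CHOP, was at 26.8, 28.3 and 30.5 in the NC libraries and 9.94, 6.85 and 11.4 in the WT libraries (1.59 ± 0.19, adjusted p = 3.97e-05), with 28.04% of its exons shared with another gene. ALDH1L2, a mitochondrial folate enzyme, was at 40.3, 45.1 and 47.02 in the NC libraries and 14.4, 11.1 and 19.95 in the WT libraries (1.53 ± 0.18, adjusted p = 3.14e-05). STC2, a secreted glycoprotein, was at 48.2, 45.02 and 46.6 in the NC libraries and 8.95, 10.3 and 33.01 in the WT libraries (1.4 ± 0.32, adjusted p = 0.00578). NC was above WT throughout, but STC2 of WT replicate 3 was close to the NC level, and without that library the difference was 2.27 and 11 of the list were called. SLC7A11, the cystine transporter, was at 60.1, 77.2 and 73.7 in the NC libraries and 33.4, 32.8 and 39.5 in the WT libraries (0.99 ± 0.13, adjusted p = 0.000102), apart and just short of 2-fold. ASNS, asparagine synthetase, was at 75.4, 80.2 and 78.9 in the NC libraries and 38.2, 32.8 and 73.2 in the WT libraries (0.69 ± 0.21, adjusted p = 0.0316), where again WT replicate 3 was near NC. TRIB3, a pseudokinase of this programme, was at 182, 163 and 184 in the NC libraries and 122, 128 and 182 in the WT libraries (0.29 ± 0.18, adjusted p = 0.293), with overlap.

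Of 21 tested genes of endoplasmic reticulum stress 1 was called (4.76%, against 5.27% of all tested genes). Of 13 tested chaperones 0 were called, with 2 higher and 1 lower at any fold and a median of 0.02. Of 8 genes of sensing and degradation 1 was called higher and 0 lower, with a median of 0.27. The called gene was ERN1, the stress sensor IRE1, at 36.9, 43.8 and 31.96 in the NC libraries and 19.7, 15.7 and 18.9 in the WT libraries (1.05 ± 0.18, adjusted p = 0.000716), and its difference fell short of 2-fold without NC replicate 2 (0.94) or WT replicate 2 (0.96). HSPA5, the chaperone BiP, was at 449.7, 382 and 387 in the NC libraries and 288, 192 and 252 in the WT libraries (0.74 ± 0.16, adjusted p = 0.00369), and XBP1, the transcript that IRE1 splices, at 43.8, 41.2 and 36.2 in the NC libraries and 27.8, 47.1 and 65.6 in the WT libraries (-0.21 ± 0.21, adjusted p = 0.52). BiP was apart between the groups and XBP1 overlapped.

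In the heat shock list the called rises were of HSP70 genes. Of 21 tested genes 3 were called higher and 1 lower (19%, against 5.27% of all tested genes), with a median of 0.22. HSPA1B (chr6:31827735-31830255) was at 84.2, 81.2 and 78.6 in the NC libraries and 19.3, 17.3 and 16.7 in the WT libraries (2.19 ± 0.20, adjusted p = 3.59e-06), and its near-identical neighbour HSPA1A (chr6:31815464-31817946) at 3.11, 2.79 and 4.17 in the NC libraries and 0.764, 0.583 and 0.522 in the WT libraries (2.40 ± 0.49, adjusted p = 0.00299). Reads that fit both genes were not counted for either, so the split between them is uncertain. HSPA6, a stress-only HSP70, was at 3.52, 2.79 and 1.53 in the NC libraries and 0.546, 0 and 0 in the WT libraries (3.65 ± 0.83, adjusted p = 0.00605), and its difference was 7.53 without WT replicate 1 and 3.02 without WT replicate 3. All NC libraries were above all WT libraries in these 3 genes. The constitutive HSPA8 was at 1984, 1986 and 2011 in the NC libraries and 2102, 2064 and 2099.9 in the WT libraries (-0.07 ± 0.08, adjusted p = 0.62), and the member called lower was HSPE1.

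Genes of iron, redox and metal handling split by role. Of 15 tested NRF2 targets 4 were called higher and 0 lower (26.7%, against 5.27% of all tested genes). Of 7 tested metallothioneins 2 were called lower and 0 higher (28.6%), and 5 were lower at any fold (background 10.3%). HMOX1 (ENSG00000100292.16, chr22:35380361-35394214), heme oxygenase, was at 24.4, 23.2 and 20.97 in the NC libraries and 2.62, 1.31 and 0.9401 in the WT libraries (3.79 ± 0.40, adjusted p = 1.65e-05). FTL, the ferritin light chain, was at 626, 543 and 565 in the NC libraries and 282, 219.5 and 252 in the WT libraries (1.20 ± 0.14, adjusted p = 2.82e-05). Both were higher in every NC library. GCLM, of glutathione synthesis, was at 30.7, 43.1 and 39.9 in the NC libraries and 20.96, 20.3 and 12.5 in the WT libraries (1.09 ± 0.20, adjusted p = 0.00114), and its difference was 0.87 without WT replicate 3. OSGIN1 (2.25) gave 2.86 without WT replicate 1. NQO1, a quinone reductase that NRF2 also controls, was at 137, 129 and 124 in the NC libraries and 148, 137 and 111 in the WT libraries (-0.02 ± 0.16, adjusted p = 0.945), with overlap. MT1X, a metallothionein that buffers zinc and copper, was at 4.35, 5.47 and 6.11 in the NC libraries and 12.99, 20.8 and 20.3 in the WT libraries (-1.76 ± 0.24, adjusted p = 0.00014). MT1G, of the same family, was at 9.64, 8.47 and 7.33 in the NC libraries and 17.03, 16.9 and 23.6 in the WT libraries (-1.18 ± 0.20, adjusted p = 0.000819). NC was below WT in every library in both, and without NC replicate 1, 4 of the list were called lower. The antioxidant response element, searched as TGACNNNGC on both strands, was in 7 of 14 promoters of the list and in 19.2% of all promoters. Among the members called higher it was in 1 of 3, and among all genes called higher in 20.4%.

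Of 34 lysosome and autophagy genes 2 were called higher and 0 lower (5.88%, against 5.27% of all tested genes). At any fold 10 were higher and 3 lower, with a median of 0.26. SQSTM1, the autophagy receptor p62, was at 159, 133 and 131 in the NC libraries and 49.9, 54.7 and 52.96 in the WT libraries (1.42 ± 0.19, adjusted p = 9.96e-05), with 22.04% of its exons shared. MCOLN1, a calcium channel of lysosomes, was at 11.7, 8.36 and 10.8 in the NC libraries and 5.13, 4.96 and 3.34 in the WT libraries (1.21 ± 0.29, adjusted p = 0.00788). The groups did not overlap in either. Of 10 tested xenobiotic response genes 0 were called by edgeR or DESeq2, with 3 higher and 2 lower at an unadjusted p below 0.05. The efflux pump ABCC5 was at 93.9, 79.6 and 86.3 in the NC libraries and 76.9, 71.1 and 87.8 in the WT libraries (0.14 ± 0.12, adjusted p = 0.478).

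Immediate early genes, the first to answer growth and stress signals, were called in both directions. Of 19 tested, 2 were called higher and 3 lower (26.3%, against 5.27% of all tested genes), with a median of 0.11. Of 10 tested feedback genes of the ERK pathway, which stand on the same list, 1 was called higher and 1 lower (20%). Their median was -0.08. JUN was at 27.6, 22.7 and 24.4 in the NC libraries and 8.63, 7.29 and 3.76 in the WT libraries (1.93 ± 0.31, adjusted p = 0.00045), and its partner FOSL2 at 47.1, 39.1 and 44.99 in the NC libraries and 18.01, 11.7 and 8.88 in the WT libraries (1.76 ± 0.23, adjusted p = 8.9e-05). Both were higher in every NC library. FOS, the classic partner of JUN, was at 17.7, 17.4 and 18.5 in the NC libraries and 18.9, 95.2 and 82.7 in the WT libraries (-1.87 ± 0.39, adjusted p = 0.0035). The FOS level of WT replicate 1 was close to the NC levels, and the other WT libraries were far above them. NR4A1, an orphan receptor, followed FOS at 11.8, 10.5 and 10.4 in the NC libraries and 12.1, 29.3 and 35.5 in the WT libraries (-1.23 ± 0.29, adjusted p = 0.00806), and without WT replicate 3 its difference was -0.91 with an adjusted p of 0.051. The call of JUNB (-1.33) was lost without NC replicate 3 (adjusted p = 0.0703) or WT replicate 2 (adjusted p = 0.0761). That of the phosphatase DUSP5 (-1.05) was lost without any library but WT replicate 1, with adjusted p between 0.0697 and 0.186. The called falls of the list came to 2 without NC replicate 3, without WT replicate 2 or without WT replicate 3.

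NF-kB targets and cytokines gave calls in both directions. Of 20 tested genes 2 were called higher and 2 lower (20%, against 5.27% of all tested genes). The median was 0.17, and the other listed genes were too low to be tested. CCL2, a monocyte chemokine, was at 1.66, 1.29 and 1.63 in the NC libraries and 4.37, 8.75 and 7.31 in the WT libraries (-2.14 ± 0.37, adjusted p = 0.000889). MAP3K8, a kinase upstream of ERK, was at 8.29, 8.36 and 8.96 in the NC libraries and 14.5, 23.03 and 27.5 in the WT libraries (-1.34 ± 0.26, adjusted p = 0.0021). Both were lower in every NC library. The call of the NF-kB subunit RELB (2.39) was lost without any library but NC replicate 2, with adjusted p between 0.0675 and 0.165. That of the apoptosis inhibitor BIRC3 (1.59) was lost without NC replicate 1 or 3 or WT replicate 1 or 3, with adjusted p between 0.0696 and 0.12. Both genes were below 3 CPM, and the list had 0 or 1 rise without NC replicate 1, NC replicate 3 or any one WT library.

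Extracellular matrix and adhesion gave more rises than falls. Of 57 tested genes 9 were called higher and 1 lower (17.5%, against 5.27% of all tested genes), with a median of 0.12. VCAN, the proteoglycan versican, was at 108, 106 and 116 in the NC libraries and 36.8, 32.2 and 24.7 in the WT libraries (1.82 ± 0.17, adjusted p = 5.6e-06). COL1A1, a chain of type I collagen and also a fibroblast marker, was at 20.01, 15.5 and 15.5 in the NC libraries and 5.68, 2.33 and 2.92 in the WT libraries (2.19 ± 0.37, adjusted p = 0.000708). TIMP3, an inhibitor of metalloproteinases, was at 6.01, 3.97 and 4.27 in the NC libraries and 1.75, 1.31 and 1.15 in the WT libraries (1.75 ± 0.30, adjusted p = 0.000893). NC was above WT in every library for these 3. The other fibroblast markers were too low to be tested. DCN and LUM had at most 5 counts in any NC library, and LUM had 31 counts in WT replicate 1. PDGFRB had 1, 12 and 3 counts in NC and 10, 8 and 3 in WT. Of 18 listed markers of other cell types 8 could be tested and 2 were called higher, COL1A1 and SOX2 (25%, against 5.27% of all tested genes). Without NC replicate 3 or WT replicate 3, 1 was called higher. The part of other cells in these results was not tested. FN1, fibronectin, was at 58.7, 65.5 and 63.3 in the NC libraries and 223, 98.5 and 98.2 in the WT libraries (-1.17 ± 0.37, adjusted p = 0.0374). Its call rested on WT replicate 1, without which the difference was -0.66 with an adjusted p of 0.194, and it was also lost without any one NC library, with adjusted p between 0.0946 and 0.12. The call of the laminin gene LAMB3 (2.06), below 2 CPM, was lost without NC replicate 1 or 3 or WT replicate 2 or 3, with adjusted p between 0.0853 and 0.137, and its difference was 2.94 without WT replicate 1.

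Among 26 actin and YAP target genes 2 were called higher and 0 lower (7.69%, against 5.27% of all tested genes). The median was 0.40, and 0.18 without WT replicate 3. ANKRD1, a YAP target, was at 12.2, 13.3 and 13.3 in the NC libraries and 4.69, 1.603 and 1.46 in the WT libraries (2.29 ± 0.33, adjusted p = 0.000219), and 3.07 without WT replicate 1. The YAP target CTGF was at 13.9, 13.2 and 15.1 in the NC libraries and 25.98, 24.3 and 14.3 in the WT libraries (-0.61 ± 0.21, adjusted p = 0.0507), with overlap. TAGLN, an actin-binding protein, was at 67.6, 61.6 and 51.4 in the NC libraries and 46.7, 22.6 and 7.52 in the WT libraries (1.23 ± 0.37, adjusted p = 0.0292). Its WT libraries spread widely, its difference was 2.04 without WT replicate 1 and 0.78 without WT replicate 3, and its call was lost without any library but WT replicate 1 (adjusted p from 0.0505 to 0.106 where it was above the threshold). With WT replicate 1 left out, 4 of the list were called higher, and without WT replicate 3 or any one NC library, 1 was. In the TGF-beta, BMP, Notch and WNT list 3 of 33 tested genes were called higher and 0 lower (9.09%, against 5.27% of all tested genes). Its median was 0.33, also 0.18 without WT replicate 3, and 5 were called higher without WT replicate 1. FZD7, a WNT receptor, was at 60.2, 54.02 and 54.1 in the NC libraries and 27.3, 22.3 and 13.2 in the WT libraries (1.43 ± 0.19, adjusted p = 0.000101), higher in every NC library. NOG, an inhibitor of BMPs, was at 0.829, 0.536 and 1.22 in NC with no count in WT, at least 2.40-fold higher. DKK1, a WNT inhibitor, had 21 counts in NC and 2 in WT, a ratio of 9.33 with a counting interval of 2.28 to 82.1, and its call was lost without NC replicate 3 or any one WT library, with adjusted p between 0.05 and 0.108.

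Glycolysis and hypoxia genes were mostly below 0, in 27 of 35 tested. Of the 35, 3 were called lower and 1 higher (11.4%, against 5.27% of all tested genes). At any fold 14 were lower (background 10.3%), and the median was -0.33. NDRG1, a hypoxia-induced gene, was at 37.3, 32.4 and 30.8 in the NC libraries and 52.6, 86.3 and 95.9 in the WT libraries (-1.22 ± 0.18, adjusted p = 0.000266). PGAM1, a glycolytic enzyme, was at 219, 192 and 201 in the NC libraries and 352, 419 and 454 in the WT libraries (-1.0 ± 0.14, adjusted p = 0.000158). P4HA2, a collagen prolyl hydroxylase and the called rise, was at 28.2, 21.3 and 25.95 in the NC libraries and 11.9, 10.1 and 10.4 in the WT libraries (1.22 ± 0.22, adjusted p = 0.00122). No library of one group crossed into the other in these 3. PGAM1 sat at the 2-fold limit and was between -0.99 and -0.92 without NC replicate 2 or 3 or WT replicate 2 or 3. PDK1 (-1.07), the kinase that shuts pyruvate dehydrogenase, was between -0.99 and -0.92 without NC replicate 2 or WT replicate 2 or 3. The number of falls was 1 without NC replicate 2, WT replicate 2 or WT replicate 3 and 5 without WT replicate 1, and without WT replicate 3, 2 were called higher.

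**Figure D2:**
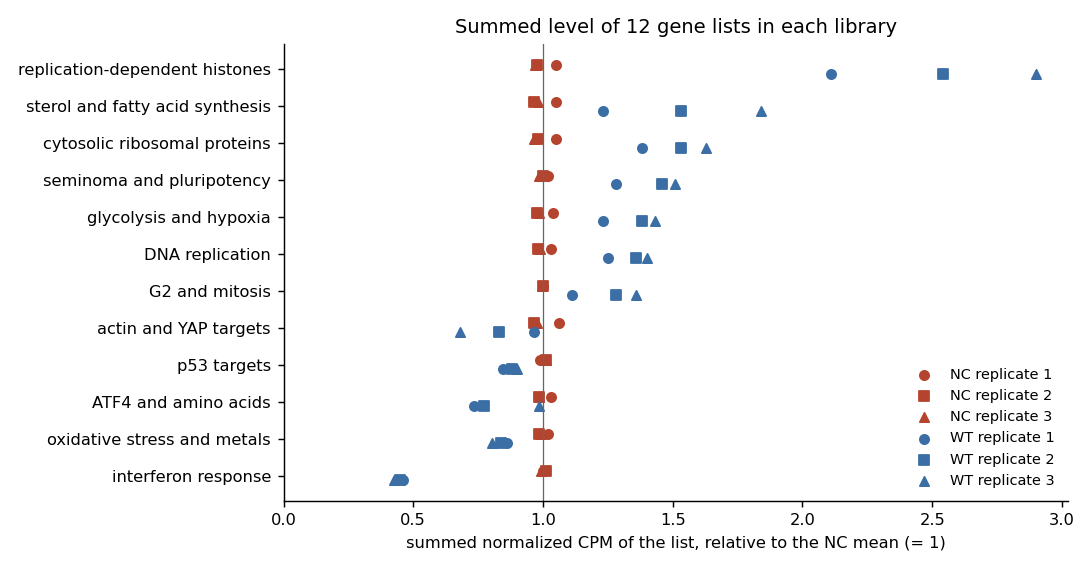
Summed normalized CPM of 12 gene lists in each NC (red) and WT (blue) library, divided by the NC mean of the list; symbols mark replicates 1, 2 and 3. WT histone sums are 2.11, 2.54 and 2.90 times the NC mean, WT interferon sums are 0.46, 0.449 and 0.427 times, and ATF4 sums of WT replicate 3 reach 0.986.

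Among transcripts without protein-coding annotation, UCA1, a long noncoding RNA, was at 17.4, 15.1 and 13.9 in the NC libraries and 4.59, 1.17 and 0.313 in the WT libraries (2.90 ± 0.45, adjusted p = 0.000356), with 24.5% of its exons shared and a difference of 4.48 without WT replicate 1. GSN-AS1, antisense to gelsolin, was at 10.5, 9.22 and 9.36 in the NC libraries and 2.73, 2.77 and 1.98 in the WT libraries (1.96 ± 0.29, adjusted p = 0.000228). As counting ignored strand, its reads cannot be told from those of the gene opposite. LINC01139 was at 3.52, 2.36 and 3.66 in the NC libraries and 9.28, 14.1 and 14.6 in the WT libraries (-1.99 ± 0.28, adjusted p = 0.000158), and RP11-771K4.1 at 18.5, 16.5 and 16.8 in the NC libraries and 49.8, 66.9 and 68.7 in the WT libraries (-1.84 ± 0.25, adjusted p = 0.000107). None of these 4 showed overlap between the groups. Of 451 tested numbered zinc finger (ZNF) genes 3 were called higher and 1 lower (0.887%, against 5.27% of all tested genes). The median was 0.01, and without WT replicate 3, 0 were called in either direction. Of these 4, ZNF777 was at 9.54, 10.1 and 9.77 in the NC libraries and 5.02, 4.81 and 4.07 in the WT libraries (1.08 ± 0.23, adjusted p = 0.00441) and ZNF483 at 28.9, 32.3 and 26.6 in the NC libraries and 40.8, 57.3 and 80.6 in the WT libraries (-1.03 ± 0.20, adjusted p = 0.00194). Without WT replicate 1, 6 were called higher and 2 lower, without WT replicate 2, 2 were called lower, and without NC replicate 3, 1 was called higher. Of 59 tested small nucleolar RNAs 1 was called higher and 2 lower (5.08%, near the 5.27% of all tested genes), with a median of -0.13. The number lower was 1 without NC replicate 1 or WT replicate 2, and the number higher was 2 without WT replicate 1.

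The falls with the largest fitted differences were those of the 4 ribosomal RNA loci of chromosome 21 (CH507-513H4.3 to CH507-513H4.6), whose summed level was 0.2074, 0.1072 and 0 in NC and 7.533, 3518 and 38.96 in WT. The calls rested on WT replicate 2. Without it the adjusted p of CH507-513H4.3 was 0.395 and that of CH507-513H4.5 was 0.509, and the 4 calls were also lost without any one NC library, with adjusted p between 0.076 and 0.118. These loci are near-identical copies, and ribosomal RNA was depleted from the libraries.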

How the data were processed

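Libraries were made from total RNA of TCam-2 cells with a stranded, ribosome-depleting kit and sequenced as paired ends. The authors aligned reads to GRCh38 with HISAT2 2.0.5 and deposited whole-number counts per gene from featureCounts, without strand and without reads that mapped to several places. The version is 1.6.5 in the submitters' processing notes and 1.5.2 in the count table's header, which names GENCODE 26. The authors also deposited log2 values, used here only for the limma alternative, and the columns of their own comparisons were not used. Gene symbols that a spreadsheet had turned into dates numbered 29, of which 27 were restored from their identifiers.

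Genes with low counts were dropped with filterByExpr over the 3 groups. The 9 libraries were fitted with edgeR 4.0.16 (R 4.3.3) with TMM factors and the quasi-likelihood test, NC against WT, adjusted by Benjamini-Hochberg. The script was tested on simulated data. Alternatives used DESeq2 1.42.0, limma 3.58.1, other scalings and filters, each library left out, and, added after the data had been seen, offsets for exon length and GC content and a fit of 6 samples without WT replicate 1. The p-values and SE rest on a spread between libraries of a group that was estimated over all 3 groups, ESX1 included. For OAS1 the ESX1 libraries were at 0.71, 10.97 and 0.554, so its p also carries their spread. DESeq2 was likewise fitted to all 9 libraries. It gave an adjusted p for 107 of the 119 called genes named by rule, and genes without one were counted as not called. Counting intervals cover counting error only.

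The comparison, its members and the gene lists were chosen with earlier results of these data known. Genes were named by rule: the 10 largest rises and falls and the 5 smallest p in each direction among called genes with groups apart and a mean of at least 5 CPM, the 3 largest noncoding rises and falls, up to 4 called members per list and direction, or the highest member where none was called, and the markers. BST2, H2AFZ, H3F3B, HIST1H2BJ, HIST1H2BM, HIST2H2BE, RRM2, PCNA, CDK1, CCNB2, MKI67, PLK1, ABCA1, MDM2, PMAIP1, SLC7A11, ASNS, TRIB3, HSPA5, XBP1, HSPA8, NQO1 and CTGF fell outside it and were chosen after their values were seen. Promoter sequences are from RefSeq (GRCh38.p14), matched by current symbol for 11822 of the tested genes.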

Additional observations from a re-analysis of the deposited data

Results flagged for a closer look

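These values come from the ESX1-activated libraries, which entered the filter, the scaling and the estimate of spread but not the contrast of NC with WT. The summed level of the interferon list was 2105 normalized CPM in ESX1 replicate 2, against 873.2 and 869.5 in ESX1 replicates 1 and 3, 2144 to 2176 in NC and 923 to 994.6 in WT. HMOX1 was at 141, 47.4 and 77.8 normalized CPM in ESX1 replicates 1, 2 and 3, all above its highest NC value of 24.4 and its highest WT value of 2.62. The 4 ribosomal RNA loci of chromosome 21 summed to 3711 normalized CPM in ESX1 replicate 3, near the 3518 of WT replicate 2, and to 0.4056 and 9.859 in ESX1 replicates 1 and 2. No cause was tested for any of them.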

How the results depend on the processing

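The count of 973 called genes (576 higher and 397 lower in NC) was within 1.5 times of the same count under DESeq2 (959), RLE factors (973), upper-quartile factors (1021), no filter beyond 1 count (1167), a fit of the 6 samples alone (934), a fit without mitochondrial and small structural RNA genes (968), libraries thinned to the smallest of the 6 (928), and offsets for exon length (954) or for exon length and GC content (1024). With at least 10 counts in each of the 6 samples, 14109 genes were tested and 614 were called, 323 higher. limma on the authors' log2 values called 338, 166 higher and 172 lower, and the cause was not tested. By construction, an adjusted p below 0.01 gave 551 calls, 273 higher, and no minimum fold gave 3158, 1259 higher and 1899 lower. The 6 samples alone without WT replicate 1, a fit chosen after the data had been seen, gave 1494 calls, 915 higher. With 1 library left out the count ran from 686 (without WT replicate 2, when 370 were higher) to 1338 (without WT replicate 1, when 788 were higher), and the number lower ran from 286 (without WT replicate 3) to 550. The difference of ESX1, which did not pass the test, became 0.07 in the thinned libraries and ran from -0.20 to 0.00 with 1 library left out.

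With the replicate number as a block, 1003 genes were called, 605 higher and 398 lower, of which 937 were among the 973. The numbers do not pair the samples: deviations of same-numbered NC and WT libraries correlated at -0.001, 0.022 and -0.03. Of 119 called genes that the text's rule named, 73 were called in every alternative that tested them, and 0 reversed. Library totals of at most 10644408 counts and 3 libraries a group limit what can be said of genes near 1 CPM.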
